A study of Mus musculus with 12 samples.

Results

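Cytochrome c oxidase, complex IV of the respiratory chain, was examined through 9 genes that encode alternative forms of its nuclear subunits, in the RNA of 12 mouse hearts. The genes were taken by symbol from a table of 25171 loci, and all 9 were listed, were above the filter on low counts in every comparison and were tested. They were Cox6a2, Cox7a1 and Cox8b, the muscle forms; Cox6a1, Cox7a2 and Cox8a, the ubiquitous forms of the same subunits; Cox4i1 and Cox4i2, the common and the second form of subunit 4; and Cox7a2l, a relative of subunit 7a.

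Every mouse came from a line with a NOTCH2NLC-(GGC)98 transgene at the Rosa26 site, silent until Cre removes a stop cassette flanked by loxP sites. EIIa-tg hearts (E2a-transgenic in the labels) carried the E2a-Cre allele, which acts in all tissues, and EIIa-ctl hearts were from littermates without it, both at P30 (postnatal day 30). Myh6-tg and Myh6-ctl mice were both labelled as carriers of Myh6-creERT2, a tamoxifen-inducible Cre driven by a cardiomyocyte promoter. At P60 the Myh6-tg mice began 3 injections of tamoxifen in corn oil at 75 mg per kg and the Myh6-ctl mice 3 injections of corn oil alone, and hearts were taken at P90. Each group had 3 hearts, described as biological replicates. The models differed in age, in Cre line and in injection together, and within the Myh6 model the action of tamoxifen, of active Cre and of the transgene cannot be told apart.

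The labels left some points unsettled. EIIa-tg replicates 2 and 3 had other genotype names (e3a and e4a) than replicate 1 and were grouped by their titles. Both Myh6 groups had 1 genotype name in common, yet RNA of Esr1 (estrogen receptor alpha, a piece of which is fused to inducible Cre proteins) was 2330, 1380 and 1030 normalised CPM in Myh6-ctl and 1.3, 2.52 and 1.0 in Myh6-tg, where it was as low as in the EIIa hearts (0.408 to 1.23). The groups labelled Myh6-ctl and Myh6-tg thus differed in this RNA as well as in the injection, and every direction given below for Myh6-tg rests on these labels. The transgene was not analysed here. The extraction text names brain, but the 12 cardiomyocyte markers together held between 13017.9 and 67100.7 normalised CPM in every heart, none at 0. Libraries held 38343106 to 50969834 counts, and mitochondrially encoded genes took 35.1% ± 1.36 of them in EIIa-ctl against 30.7% ± 1.99 in EIIa-tg, and 35.9% ± 3.56 in Myh6-ctl against 17.3% ± 1.62 in Myh6-tg (mean ± SD, n = 3 hearts).

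Complex IV passes electrons from cytochrome c to oxygen and pumps protons across the inner mitochondrial membrane. Its catalytic core is made from mitochondrial DNA, and small nuclear subunits surround that core. Several of these exist as pairs of genes: heart and skeletal muscle replace the ubiquitous forms of subunits 6a, 7a and 8 with muscle forms as they mature, and Cox7a1 and Cox8b are also known from brown fat. Cox4i2 is known from lung and as a gene that responds to low oxygen, and Cox7a2l, also called SCAF1, helps complex IV associate with complex III.

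In the GENCODE annotation of GRCm38, all 3 muscle forms were on chromosome 7: Cox6a2 at chr7:128205435-128206387 and Cox8b at chr7:140898945-140900446 on the minus strand, and Cox7a1 at chr7:30184144-30186078 on the plus strand. Their partners were elsewhere: Cox6a1 at chr5:115345642-115348981 and Cox7a2 at chr9:79755361-79759878 on the minus strand, and Cox8a at chr19:7215153-7217616 on the minus strand. Cox4i1 lay at chr8:120668222-120674207 and Cox4i2 at chr2:152754173-152765037, both on the plus strand, and Cox7a2l at chr17:83501918-83517330 on the minus strand. The coding sequences of a pair were 66.6% (Cox6a2 and Cox6a1), 66.9% (Cox7a1 and Cox7a2), 68.6% (Cox8b and Cox8a) and 70.5% (Cox4i2 and Cox4i1) identical at aligned bases, and the transcripts of a pair shared no identical run longer than 14 bases. Strand-specific counting is not stated. Cox6a2 overlaps Itgad on the opposite strand, which had at most 18 counts in a heart and at most 0.255% of the Cox6a2 count. Cox4i1 overlaps Emc8, which had 748 to 1312 counts, at most 6.97% of the Cox4i1 count.

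The promoters of 6 of the 9 genes, each the 250 bases before and 50 after the start, were found in the RefSeq table of GRCm38.p6. Cox4i1, Cox4i2 and Cox6a2 had no entry. Ubiquitous and muscle forms differed in how many CpG dinucleotides these 300 bases held: 32 in Cox6a1, 20 in Cox7a2 and 19 in Cox8a, against 7 in Cox7a1 and 2 in Cox8b, where the median of all promoters was 7. Cox7a2l held 19. Motifs were searched as letters on both strands: NRF-1 (in 4.6% of 32851 promoters), ETS (CCGGAAG, 8.86%), E-box (CAGCTG, 16.3%), estrogen-related receptor (TNAAGGTCA, 1.28%), YY1 (AANATGGC, 6.05%) and MEF2 (3.69%). NRF-1 letters were in the Cox6a1 promoter, ETS letters in Cox6a1 and Cox8a, and E-box letters in Cox8b; the other letters were in none of the 6. The windows below, printed on the strand of the gene with the matched letters in capitals, show 1 match for each motif and gene, of 7 matches in all (a second NRF-1 match in Cox6a1, ETS match in Cox8a and E-box match in Cox8b are not printed), since the members with and without them are the forms compared below. A match is a description of the letters and not a binding site.
Cox6a1, NRF-1, chr5:115349101-115349130, minus strand: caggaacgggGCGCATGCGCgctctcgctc
Cox6a1, ETS on the opposite strand, chr5:115348956-115348985, minus strand: ccccatttccgCTTCCGGcgcgccggtgta
Cox8a, ETS on the opposite strand, chr19:7217603-7217632, minus strand: tttccgaaataCTTCCGGctcgggcgtccg
Cox8b, E-box, chr7:140900448-140900477, minus strand: tgtgacaggagaCAGCTGcagctctccacc

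In Myh6-tg hearts the muscle forms of all 3 subunits were lower than in Myh6-ctl, while the ubiquitous forms Cox6a1 and Cox8a did not pass the test in either direction. Cox7a1 fell most, to 0.118 of its control level, followed by Cox8b (0.207) and Cox6a2 (0.296). The remaining ubiquitous form, Cox7a2, was at 0.558 of its control level and did not pass the test (edgeR adjusted p = 0.0667). Cox4i1, not a muscle form, passed it at 0.446 (edgeR adjusted p = 0.0404). In EIIa-tg hearts, Cox7a1 was the 1 member that passed the test, at 0.558 of its control level, and this call depended on single hearts. Levels are given as normalised CPM, the counts of a gene per unit of sequencing depth (CPM) after TMM scaling over all 12 hearts. Levels of different genes are compared only in FPKM, which also divides by transcript length. Fold changes are from edgeR's quasi-likelihood test across all genes, and a gene was called at a Benjamini-Hochberg adjusted p under 0.05.

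Cox7a1, whose product occupies the place of Cox7a2 in muscle, had 56.7, 79.8 and 39.4 normalised CPM in Myh6-ctl and 6.83, 7.79 and 6.21 in Myh6-tg. All 3 Myh6-tg hearts lay far below the lowest control, on 320 to 359 counts each. The log2 fold change was -3.08 (SE 0.29, edgeR adjusted p = 0.00184). In EIIa-ctl it had 62.5, 69.4 and 75.2 normalised CPM, and in EIIa-tg 37.2, 50.8 and 27.6. The EIIa groups did not overlap either, and their log2 fold change was -0.84 (SE 0.20, edgeR adjusted p = 0.0318). Cox7a1 was called lower in EIIa-tg in 9 of 17 alternative fits. Among those that left out 1 heart, the call was kept only without EIIa-tg replicate 2 (log2 fold change -1.10, edgeR adjusted p = 0.00222). Leaving out EIIa-ctl replicate 1, 2 or 3 or EIIa-tg replicate 1 or 3 gave log2 fold changes between -0.91 and -0.64 and edgeR adjusted p-values of 0.0918, 0.0629, 0.112, 0.0983 and 0.0757.

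Cox8b, the muscle form of subunit 8, had 32.1, 54.3 and 25.8 normalised CPM in Myh6-ctl and 7.34, 8.98 and 6.83 in Myh6-tg. The groups did not overlap, and the log2 fold change was -2.27 (SE 0.30, edgeR adjusted p = 0.00496). In the EIIa model it had 33.0, 42.8 and 41.9 normalised CPM in controls and 39.5, 26.4 and 27.2 in EIIa-tg. Here EIIa-tg replicate 1 lay among the controls, and the log2 fold change was -0.35 (SE 0.18, edgeR adjusted p = 0.20).

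Cox6a2, the muscle form of subunit 6a, had 393, 674 and 311 normalised CPM in Myh6-ctl and 151, 159 and 97.4 in Myh6-tg. The groups did not overlap, and the log2 fold change was -1.76 (SE 0.34, edgeR adjusted p = 0.0147). Without Myh6-tg replicate 3 the edgeR adjusted p was 0.0553. In the EIIa model Cox6a2 had 429, 505 and 561 normalised CPM in controls and 512, 437 and 357 in EIIa-tg, with overlapping groups and a log2 fold change of -0.20 (SE 0.16, edgeR adjusted p = 0.415).

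The ubiquitous partners had other values in the same hearts. Cox6a1 had 38.4, 56.3 and 30.4 normalised CPM in Myh6-ctl and 57.0, 47.3 and 37.9 in Myh6-tg, a log2 fold change of 0.18 (SE 0.26, edgeR adjusted p = 0.669). Cox8a had 40.6, 74.3 and 37.9 normalised CPM in Myh6-ctl and 68.5, 43.0 and 36.3 in Myh6-tg, a log2 fold change of -0.05 (SE 0.33, edgeR adjusted p = 0.939). Both genes overlapped between the groups in normalised CPM. In the deposited FPKM, which are not TMM-scaled, Cox6a1 did not overlap, at 85.0 to 106.6 in Myh6-tg against 54.2 to 79.7 in Myh6-ctl, and its log2 fold change was 0.61 with limma on log2(FPKM + 1) (limma adjusted p = 0.054), where the median of all tested genes was 0.27. On that scale Cox8a was at 0.36 (limma adjusted p = 0.318). Cox7a2 had 147, 241 and 139 normalised CPM in Myh6-ctl and 108, 110 and 76.7 in Myh6-tg. Its groups overlapped in FPKM but not in normalised CPM, and its log2 fold change of -0.84 (SE 0.27) missed the threshold without the replicate block (edgeR adjusted p = 0.0667) and passed with it (log2 fold change -0.81, edgeR adjusted p = 0.0313).
In the EIIa model Cox6a1 had 39.2, 41.1 and 48.4 normalised CPM in controls and 34.1, 36.6 and 35.1 in EIIa-tg, without overlap (in FPKM they overlapped), at a log2 fold change of -0.29 (SE 0.11, edgeR adjusted p = 0.103). Cox7a2 and Cox8a overlapped between the EIIa groups, both with a log2 fold change of -0.17 (edgeR adjusted p = 0.36 and 0.319) and with a positive sign on log2 FPKM.

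Cox4i1, the subunit 4 form of most tissues, had 1038, 1446 and 783 normalised CPM in Myh6-ctl and 619, 486 and 352 in Myh6-tg. The groups did not overlap, and the log2 fold change was -1.17 (SE 0.32, edgeR adjusted p = 0.0404). That call was lost when Myh6-ctl replicate 1 or 2, or Myh6-tg replicate 2 or 3, was left out, with edgeR adjusted p-values of up to 0.135. It was also lost on log2(FPKM + 1) (-0.75, limma adjusted p = 0.0676). Cox4i2 had 9.998, 13.2 and 7.04 normalised CPM in Myh6-ctl and 4.91, 6.40 and 6.02 in Myh6-tg, a log2 fold change of -0.80 (SE 0.28, edgeR adjusted p = 0.0847). Cox7a2l had 215, 250 and 216 normalised CPM in Myh6-ctl and 196, 126 and 117 in Myh6-tg, a log2 fold change of -0.63 (SE 0.24, edgeR adjusted p = 0.104). Neither gene overlapped between the Myh6 groups in normalised CPM, both did in FPKM, and neither passed the test.
In the EIIa model Cox4i1 and Cox4i2 overlapped between groups, with log2 fold changes of -0.21 (edgeR adjusted p = 0.36) and -0.15 (edgeR adjusted p = 0.551), the sign for Cox4i2 being positive on log2 FPKM. Cox7a2l had 235, 225 and 234 normalised CPM in EIIa-ctl and 196, 198 and 158 in EIIa-tg, without overlap, at a log2 fold change of -0.33 (SE 0.11, edgeR adjusted p = 0.0751).

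**Figure D1:**
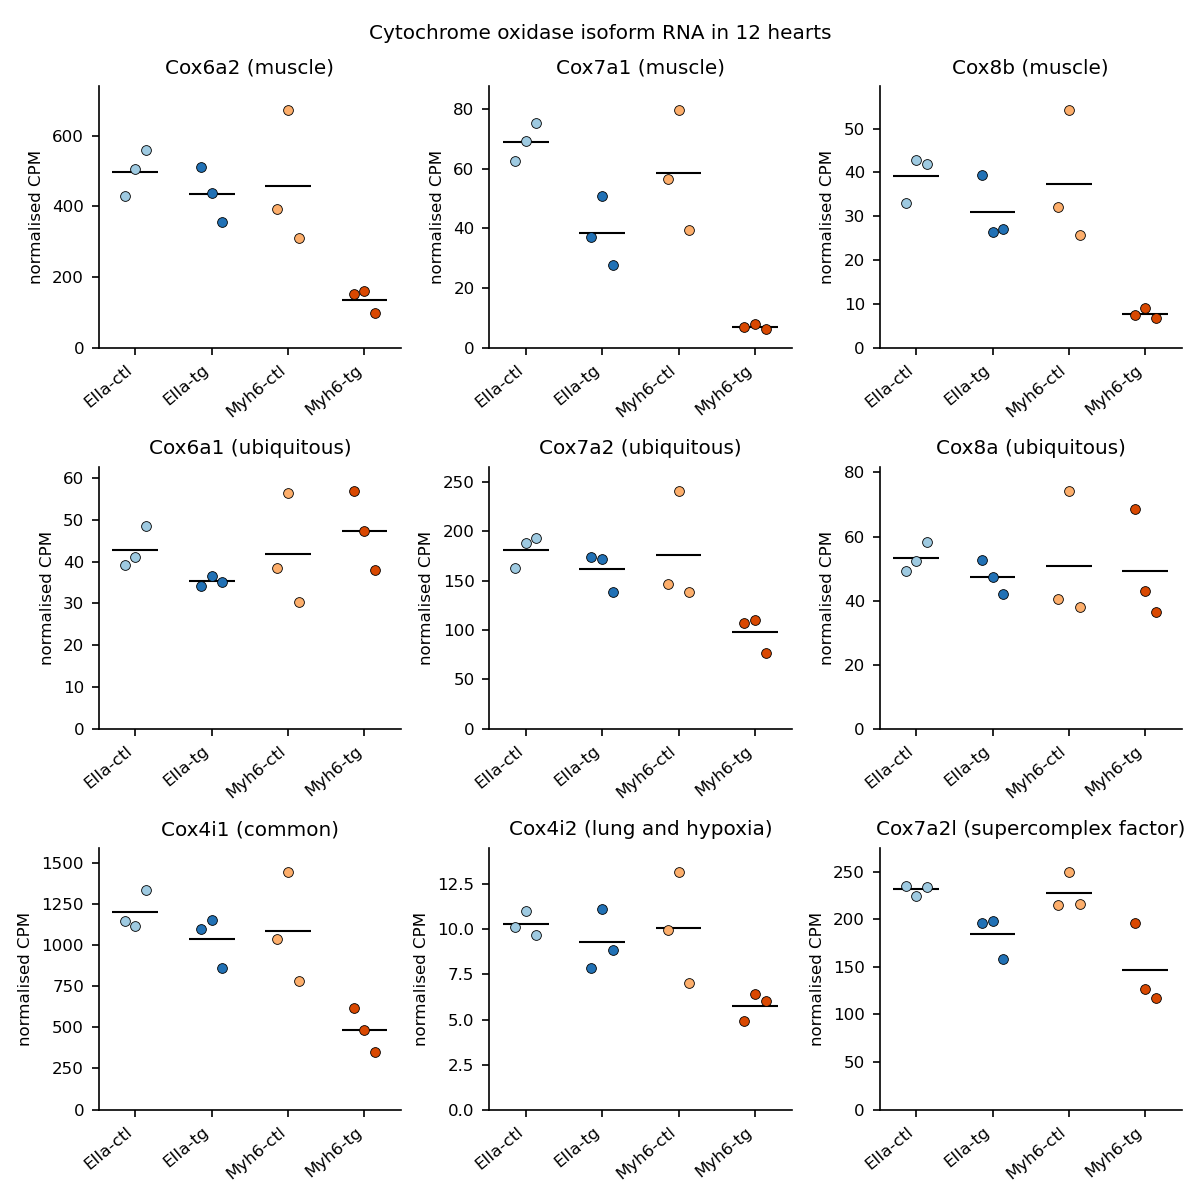
Normalised CPM (vertical axis, from 0) of each member in each heart (points) by group (horizontal axis), with the group mean as a line. The 3 Myh6-tg hearts sit at 6.21 to 7.79 for Cox7a1, below all other hearts, while for Cox6a1 and Cox8a their range overlaps that of the Myh6-ctl hearts.

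Counted together, 4 of 9 members were called lower and 0 higher in Myh6-tg, against a background of 9.38% of 15298 tested genes called lower and 8.96% higher. On log2(FPKM + 1), limma called 3 members lower, without Cox4i1, and 6.22% of genes lower and 21.1% higher. By the cut-offs of the study's stricter rule (adjusted p under 0.01, log2 fold change of 1 or more in size), 2 members were lower with edgeR (Cox7a1 and Cox8b), against 2.05% of genes. The study used DESeq2, and these cut-offs were not applied to DESeq2 results here. In EIIa-tg, 1 of 9 was called lower and 0 higher, against 8.3% of 14908 tested genes called lower and 8.65% higher, a share near the background. On log2(FPKM + 1) limma called 1 member lower (Cox7a1), and 634 genes lower and 2237 higher. Without 1 heart at a time, edgeR called between 0 and 2110 genes lower in EIIa-tg, 0 of them without EIIa-ctl replicate 1 or 3 or EIIa-tg replicate 1, and 2110 without EIIa-tg replicate 2. Of the members, 7 did not overlap between the Myh6 groups and were lower in Myh6-tg, against 19.6% of all genes, and 3 (Cox6a1, Cox7a1 and Cox7a2l) did so in the EIIa model, against 20.8%. In FPKM, 4 members were lower without overlap in the Myh6 model and 1 higher (Cox6a1), and 2 were lower in the EIIa model. The share of all genes without overlap was taken in normalised CPM only, so these FPKM counts have no background. The median log2 fold change of the members was -0.84 in the Myh6 model and -0.21 in the EIIa model, where the medians of all tested genes were 0.03 and 0.02 (0.27 and 0.13 on log2(FPKM + 1)).

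**Figure D2:**
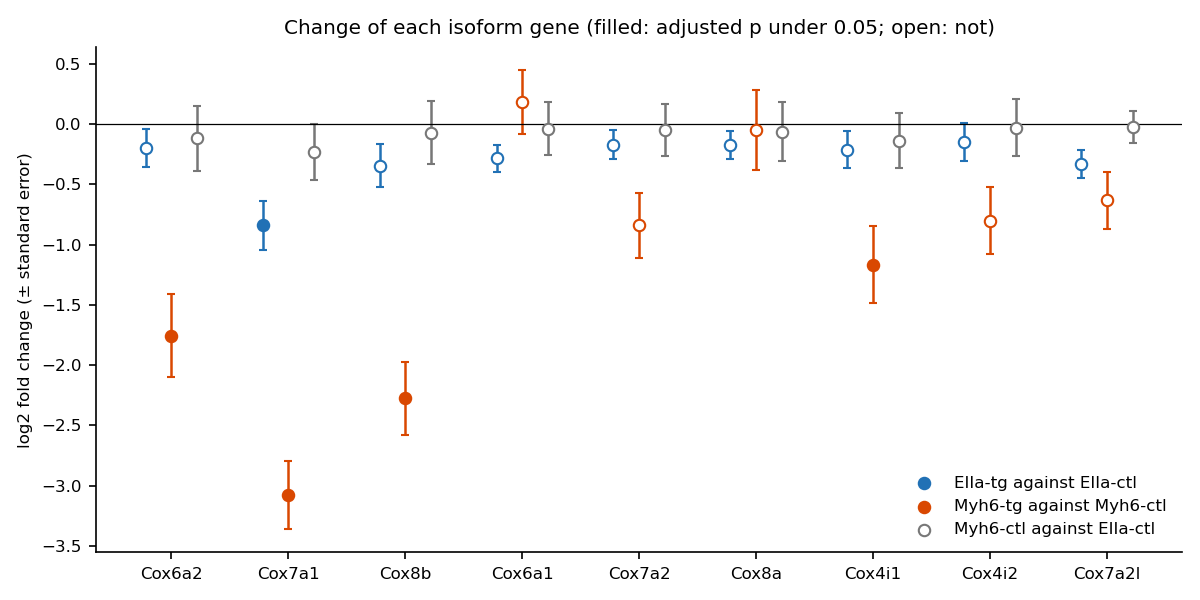
Log2 fold change from edgeR with its standard error (vertical axis) for each member (horizontal axis) in the Myh6 model (orange), the EIIa model (blue) and the controls at P90 against P30 (grey), filled where called. The 3 muscle forms reach -1.76 to -3.08 in the Myh6 model, and in the controls every member lies between -0.24 and -0.02.

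No member passed the test between control hearts at P90 and at P30. The log2 fold changes of the 9 members in Myh6-ctl against EIIa-ctl lay between -0.24 (Cox7a1, edgeR adjusted p = 0.762) and -0.02 (Cox7a2l, edgeR adjusted p = 0.967). No member was called by edgeR, where 0.0334% of 14990 tested genes were called in either direction. None had an unadjusted p under 0.05, against 1700 of the 14990 genes. DESeq2 called none, against 0.838% of genes called lower and 1.8% higher. For 9 members, a count of 0 is near these shares. The groups overlapped for all 9, whereas 17.4% of all genes did not overlap.

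The difference of the log2 fold changes, Myh6 model minus EIIa model, was tested with all 12 hearts in 1 fit. It was called for Cox7a1 (-2.24, SE 0.36, edgeR adjusted p = 0.0089) and Cox8b (-1.93, SE 0.37, edgeR adjusted p = 0.0152), against 2.27% of 15929 genes called lower. For Cox6a2 it was -1.56 (SE 0.40, edgeR adjusted p = 0.0503), and with the replicate block -1.51 (edgeR adjusted p = 0.0386). For the other members it ran from -0.96 (Cox4i1, edgeR adjusted p = 0.166) to 0.47 (Cox6a1, edgeR adjusted p = 0.427), and none was called.

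The balance between forms was then taken within each heart, as a ratio of the counts of 2 genes, which depends on neither library size nor scaling. How far the ratios varied beside the levels differed by group. The log2 ratio had a smaller SD than the log2 level of either gene for all 3 muscle to ubiquitous pairs in Myh6-ctl, for 2 of 3 in EIIa-ctl, for 1 of 3 in Myh6-tg and for 0 of 3 in EIIa-tg. In Myh6-ctl the SD of log2 level was 0.573 for Cox6a2 and 0.449 for Cox6a1, and the SD of their log2 ratio was 0.131. For Cox8b and Cox8a these were 0.553, 0.534 and 0.108, and for Cox7a1 and Cox7a2 they were 0.51, 0.439 and 0.223. In Myh6-tg those of Cox8b and Cox8a were 0.205, 0.475 and 0.518. Replicate 2 was the highest Myh6-ctl heart in the level of every member. Its Cox7a1 and Cox8b ratios lay between those of the other hearts of the group, and its Cox6a2 ratio was the highest.

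In FPKM, Cox6a2 far exceeded Cox6a1 in controls and less so in Myh6-tg. It made up 90.7% ± 0.489 of the FPKM of the pair in EIIa-ctl against 91.0% ± 1.57 in EIIa-tg, and 90.0% ± 0.796 in Myh6-ctl against 70.4% ± 3.01 in Myh6-tg (mean ± SD, n = 3). The log2 count ratios were 3.35, 3.58 and 3.35 in Myh6-ctl and 1.41, 1.75 and 1.36 in Myh6-tg, and those groups did not overlap. The difference was -1.92 (SE 0.14, exact two-sided permutation p = 0.1). In the EIIa model the ratios overlapped, 3.45, 3.62 and 3.53 against 3.91, 3.58 and 3.35, a difference of 0.07 (SE 0.17, exact permutation p = 0.8).

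Cox7a1 was the lesser form of its pair in controls already. Its share of the pair's FPKM was 38.6% ± 0.623 in EIIa-ctl against 27.8% ± 4.30 in EIIa-tg, and 35.4% ± 3.56 in Myh6-ctl against 10.6% ± 1.16 in Myh6-tg (mean ± SD, n = 3). The log2 count ratios of Cox7a1 to Cox7a2 were -1.37, -1.60 and -1.82 in Myh6-ctl and -3.97, -3.81 and -3.62 in Myh6-tg, a difference of -2.21 (SE 0.16, exact permutation p = 0.1). They were -1.38, -1.44 and -1.36 in EIIa-ctl and -2.23, -1.76 and -2.33 in EIIa-tg, a difference of -0.71 (SE 0.18, exact permutation p = 0.1). The groups did not overlap in either model, and 6 of 6 transgenic hearts lay below all controls of their model.

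Cox8b and Cox8a were near equal in FPKM in 3 groups. The share of Cox8b was 52.6% ± 2.47 in EIIa-ctl against 49.5% ± 3.71 in EIIa-tg, and 52.6% ± 1.86 in Myh6-ctl against 20.0% ± 5.36 in Myh6-tg (mean ± SD, n = 3). The log2 count ratios were -0.34, -0.45 and -0.56 in Myh6-ctl and -3.22, -2.26 and -2.41 in Myh6-tg, without overlap and with replicate 1 the lowest. The difference was -2.18 (SE 0.31, exact permutation p = 0.1). In the EIIa model the groups overlapped, with a difference of -0.18 (SE 0.15, exact permutation p = 0.3).

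The 2 ratios without a muscle form differed by smaller amounts. Cox4i2 made up 0.878% ± 0.129 of the FPKM of its pair in EIIa-ctl against 0.913% ± 0.167 in EIIa-tg, and 0.939% ± 0.0327 in Myh6-ctl against 1.28% ± 0.456 in Myh6-tg, and the log2 ratio differed by 0.39 (SE 0.33, exact permutation p = 0.4) in the Myh6 model and by 0.06 (SE 0.21, exact permutation p = 0.8) in the EIIa model. The ratio of Cox7a2l to Cox7a2 differed by 0.15 (SE 0.27, exact permutation p = 0.6) in the Myh6 model and by -0.16 (SE 0.09, exact permutation p = 0.1, without overlap) in the EIIa model.

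With 3 hearts against 3, 0.1 is the smallest p that the exact test can give, so no single-model ratio could pass a threshold of 0.05. Over the 5 ratios the smallest adjusted p was 0.167 in the Myh6 model and 0.25 in the EIIa model. Between the 2 control groups all 5 ratios overlapped, with differences from -0.20 to 0.11 and exact permutation p-values of 0.3 or more.

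With the genotype exchanged within each model over 400 arrangements, the mean of the 2 models' differences was -1.46 for Cox7a1 to Cox7a2 (SE 0.12, exact permutation p = 0.005, the smallest possible, adjusted p = 0.025) and -1.18 for Cox8b to Cox8a (SE 0.17, exact permutation p = 0.015, adjusted p = 0.0375). For Cox6a2 to Cox6a1 it was -0.92 (SE 0.11, exact permutation p = 0.065, adjusted p = 0.108). These means combine a large difference in the Myh6 model with a smaller one in the EIIa model, of the other sign for Cox6a2 to Cox6a1. The adjusted p reached 0.05 for Cox7a1 to Cox7a2 without EIIa-ctl replicate 2 or 3, and lay between 0.05 and 0.075 for Cox8b to Cox8a without EIIa-ctl replicate 2 or 3 or EIIa-tg replicate 2 or 3. With the hearts paired by number, no ratio passed (exact permutation of signs, lowest adjusted p = 0.156).
The difference between the models' ratio changes was -1.997 for Cox6a2 to Cox6a1, -1.50 for Cox7a1 to Cox7a2 and -1.99 for Cox8b to Cox8a, with exact permutation p-values of 0.09, 0.09 and 0.055 and an adjusted p of 0.15 each. This test exchanges hearts between models and so also moves whatever is common to a model, age included.

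**Figure D3:**
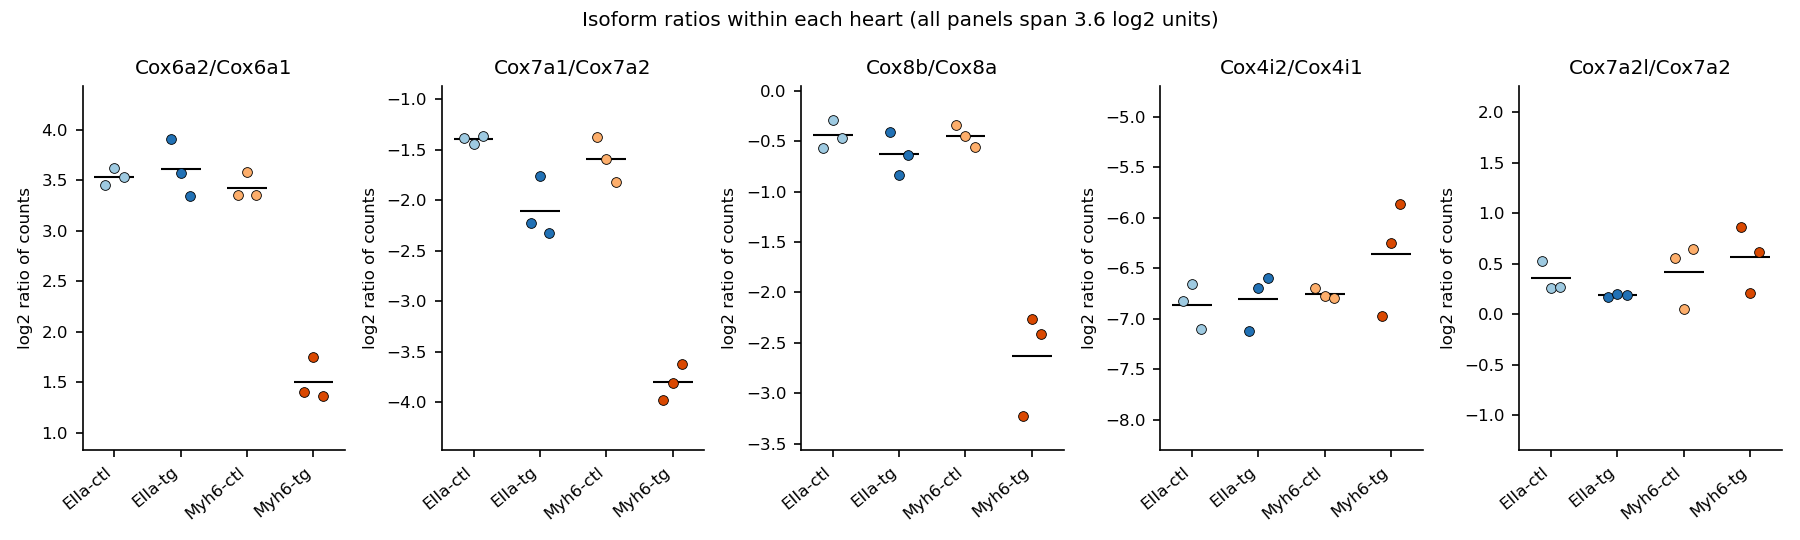
Log2 ratio of the counts of 2 genes (vertical axis, 3.6 log2 units in each panel) within each heart (points) by group (horizontal axis), with the group mean as a line. The 3 muscle to ubiquitous ratios of Myh6-tg lie below those of all other hearts, and the EIIa-tg hearts lie below their controls for Cox7a1 to Cox7a2 only among these 3.

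The rest of complex IV gives the setting for these values. Here and below, fell and rose mean called lower and called higher by edgeR. Of all tested genes, 9.38% fell and 8.96% rose in Myh6-tg, and 8.3% fell and 8.65% rose in EIIa-tg. An unadjusted p under 0.05 was found for 5210 of 15298 tested genes in Myh6-tg and 5204 of 14908 in EIIa-tg. Of 7 nuclear subunits without a heart isoform, 3 were called lower in Myh6-tg (Cox7c, Cox7b and Cox6c, with log2 fold changes of -1.11, -0.95 and -1.09). All 7 had a negative log2 fold change there, at a median of -0.95. The largest in size was that of Cox5a, at -1.125, which missed the threshold (edgeR adjusted p = 0.0535). None was called in EIIa-tg by edgeR, where 1 had an unadjusted p under 0.05. Of the 3 mitochondrially encoded subunits, mt-Co2 and mt-Co3 were called lower in Myh6-tg (log2 fold changes -1.48 and -1.76, edgeR adjusted p = 0.0214 and 0.0166). In the same hearts mt-Co1 was at -1.57 and missed the threshold (edgeR adjusted p = 0.0508). None of the 3 was called in EIIa-tg. Of 23 tested assembly and supercomplex factors, 6 fell and 0 rose in Myh6-tg, the lowest p being that of Lrpprc, which stabilises mitochondrial mRNA (log2 fold change -1.70, edgeR adjusted p = 0.00461). In EIIa-tg, 8 of the 23 fell, the lowest p being that of Taco1, a translational activator of mt-Co1 (log2 fold change -1.18, edgeR adjusted p = 0.0169). There 1 rose, Cox19, a copper-related assembly factor (log2 fold change 0.94, edgeR adjusted p = 0.0186). Called or not, 21 of the 23 had a negative log2 fold change in Myh6-tg, at a median of -0.69. In EIIa-tg 18 did, at a median of -0.36. Genes named from counts of up to 5 here and below were chosen after their values were seen. The isoforms of other tissues, Cox6b2, Cox7b2 and Cox8c, summed to under 1.12 normalised CPM in every heart.

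Among 20 listed regulators of respiratory chain or muscle genes, 4 were called lower in Myh6-tg (Ppargc1a, Esrra, Mef2c and Chchd10), against 9.38% of all tested genes. In EIIa-tg 3 were called lower (Esrrg, Esrrb and Cxxc5), against 8.3%, and none was called higher in either model. The lowest p in Myh6-tg was that of Ppargc1a, a coactivator of mitochondrial biogenesis, at a log2 fold change of -2.39 (SE 0.34, edgeR adjusted p = 0.00588). In EIIa-tg Ppargc1a was at -0.11 (SE 0.16, edgeR adjusted p = 0.673), and the difference between models was -2.28 (SE 0.40, edgeR adjusted p = 0.0112). The lowest p in EIIa-tg was that of Esrrg, an estrogen-related receptor, at -0.68 (SE 0.14, edgeR adjusted p = 0.0227). In Myh6-tg Esrrg was at -1.75, Esrrb at -1.34 and Cxxc5 at -0.41, not called (edgeR adjusted p = 0.0803, 0.141 and 0.240). Their differences between models were not called either (edgeR adjusted p = 0.413, 0.584 and 0.974).

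Cell type markers moved in the same hearts. In bulk tissue, fewer cells of a type and less RNA per cell cannot be told apart. Of 12 cardiomyocyte markers, 7 fell in Myh6-tg, with a median log2 fold change of -2.02 and the lowest p for Mb, the myoglobin gene (-2.60, SE 0.34, edgeR adjusted p = 0.00488), while Ttn, Tnnt2 and Actn2, genes of the sarcomere picked after their values were seen, were at 0.03, 0.44 and 0.58 and were not called. In EIIa-tg, 2 of the 12 fell (Ryr2 and Myl3), with a median of -0.81 and the lowest p for Ryr2 (-1.05, SE 0.26, edgeR adjusted p = 0.0322). The markers' summed level ran from 56971.5 to 67100.7 normalised CPM in EIIa-ctl, 27966.5 to 49561 in EIIa-tg, 42812.7 to 59808.9 in Myh6-ctl and 13017.9 to 36368.6 in Myh6-tg, and no marker was at 0. Of 8 fibroblast markers, 3 rose in EIIa-tg (Pdgfra, Dcn and Gsn) and 2 in Myh6-tg (Pdgfra and Col1a1), their sums running from 2801.61 to 3643.16 normalised CPM in EIIa-ctl, 4608.25 to 6449.78 in EIIa-tg, 3448.96 to 4309.17 in Myh6-ctl and 2812.66 to 7527.7 in Myh6-tg. Called or not, 6 of the 8 had a positive log2 fold change in Myh6-tg and 2 a negative one (Lum at -0.79 and Dpt at -0.33). Of 8 tested macrophage and leukocyte markers 7 rose in EIIa-tg, and of 9 tested in Myh6-tg none was called by edgeR, 1 having an unadjusted p under 0.05. Their sums ran from 204.735 to 310.533 normalised CPM in EIIa-ctl against 405.872 to 546.306 in EIIa-tg, and from 363.21 to 515.9 in Myh6-ctl against 474.658 to 914.721 in Myh6-tg. In Myh6-tg 5 of these 9 markers had a negative log2 fold change and 4 a positive one, at a median of -0.17. Endothelial markers fell in 3 of 7 cases in EIIa-tg (Cdh5, Kdr and Tie1; sums 791.917 to 889.739 against 1022.15 to 1173.47 normalised CPM) and in none in Myh6-tg by edgeR, 3 having an unadjusted p under 0.05. Pericyte and smooth muscle markers fell in 2 of 10 cases in EIIa-tg (Abcc9 and Vtn) and 3 of 10 in Myh6-tg (these and Myh11). Of tested adipocyte markers 1 of 5 rose in Myh6-tg (Dio2), and of skeletal muscle markers Tnnt3 rose in both models, with the list summing to at most 50.6 normalised CPM in a heart. Ucp1, the defining gene of brown fat, was at 0 counts in 10 of the 12 hearts and at most 13 in the others, and Myh1 and Myh4, myosins of fast skeletal muscle, were at 0 in 11 and 9 hearts and at most 6 and 11 counts in the others. The part of these shifts, and of the lower mitochondrial share, in the isoform values was not tested.

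**Figure D4:**
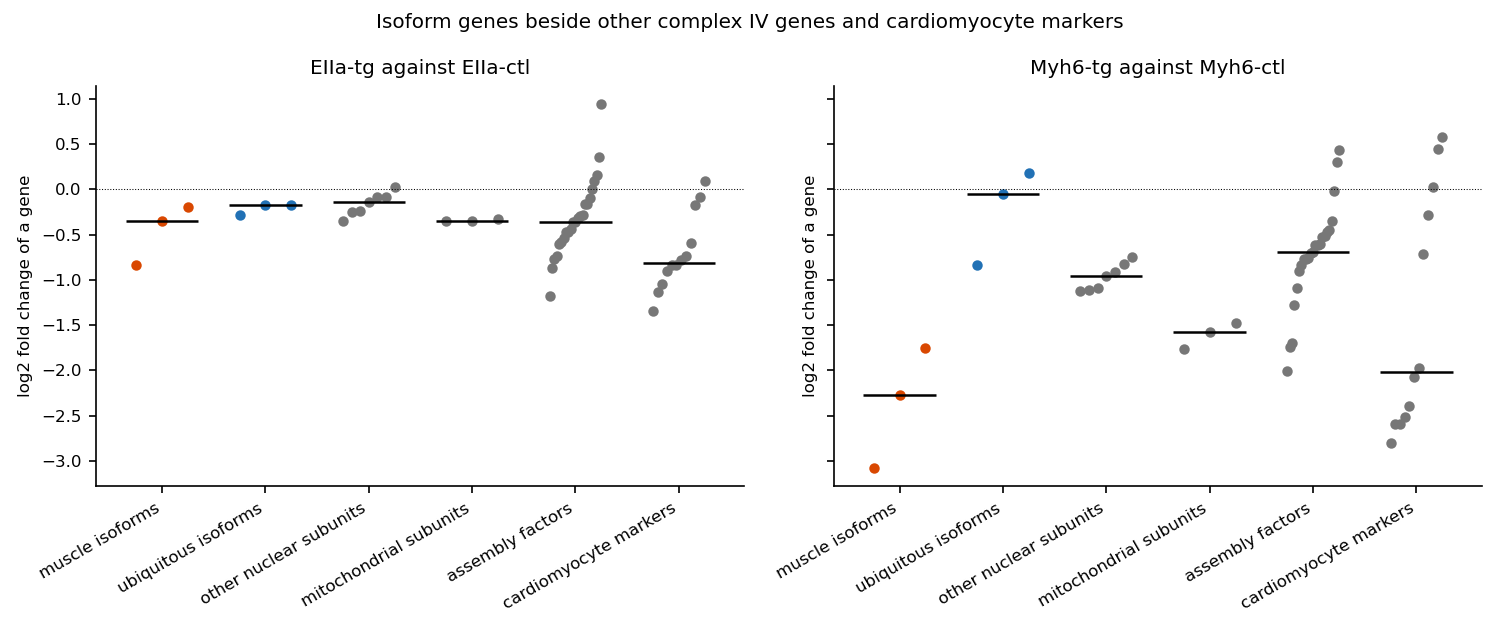
Log2 fold change of single genes (points; vertical axis) in the EIIa and the Myh6 model, by gene group (horizontal axis), with the median of the group as a line. In the Myh6 model the 3 muscle forms (-1.76 to -3.08) stand beside 12 cardiomyocyte markers with a median of -2.02, and the other nuclear subunits have a median of -0.95.

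The genes whose pattern was most like that of a muscle form were found by the root-mean-square difference of centred log2 CPM over the 12 hearts, among 10378 genes with a mean of at least 5 CPM. For Cox6a2 these were Atp5k (0.187), Etfb (0.189), Fmc1 (0.194), Tecr (0.196) and Vegfb (0.198). For Cox7a1 they were Doc2g (0.181), Fitm1 (0.213), Ppif (0.226), Cmss1 (0.231) and Mb (0.261). For Cox8b the nearest gene was Cox6a2 itself (0.238), followed by Rdm1 (0.239), Eci1 (0.267), Hadhb (0.27) and Etfb (0.279). The own SD of log2 CPM over the 12 hearts was 0.868 for Cox6a2, 1.39 for Cox7a1 and 1.04 for Cox8b. From Cox6a2, the muscle forms Cox8b and Cox7a1 were 0.238 and 0.593 away. The ubiquitous forms Cox7a2, Cox8a and Cox6a1 were 0.425, 0.759 and 0.89 away. Cox4i1 (0.28), Cox4i2 (0.524) and Cox7a2l (0.59) were all nearer to Cox6a2 than Cox7a1 was, as was Cox7a2. These distances follow the 4 groups and are a description only.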

How the data were processed

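RNA of 12 hearts was analysed. The authors deposited counts, raw whole numbers for each gene, and FPKM, fragments scaled to transcript length and to all mapped fragments. Per the labels and methods, libraries were made with the NEBNext Ultra kit and paired-end reads were mapped to GRCm38 with HISAT2 (version 2.0.4 in the submitters' notes, which also name StringTie 2.2.1, mm10 and GRCm39). The counting program, its strand setting and the annotation release are not given in the sources used here. All columns mapped to a labelled sample. Between 38343106 and 50969834 counts per heart limit the precision of low values.

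Hearts were grouped by title. Genes passing filterByExpr were TMM-normalised and tested with glmQLFit and glmQLFTest of edgeR 4.0.16 in R 4.3.3, in the 6 hearts of a comparison or in all 12 for the difference between models, with adjustment over all genes tested. Within-heart ratios used counts plus 0.5 and exact two-sided permutation tests, adjusted over 5 ratios. Alternatives used DESeq2 1.42.0, RLE factors, other filters, no mitochondrial genes, limma 3.58.1 on log2(FPKM + 1) or log2(FPKM + 0.1), 1 fit of all hearts, the replicate number as a block, and leaving out each heart. Deviations of same-numbered hearts correlated in the Myh6 model (0.285, 0.184 and 0.173), so blocked values stand beside those results where a call changed; the labels state no pairing. In simulated data edgeR called 13% of genes changed by a log2 of 1 and 88% of those changed by 2 in the Myh6 comparison, and 85% and 100% in the EIIa comparison.

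The 9 members were all named. The gene with the lowest p in each model was named for the assembly factors, the regulators and the cardiomyocyte markers. Other list genes were named from counts of up to 5 or after their values were seen. The 5 genes most alike to each muscle form were also named. Members, lists and tests were chosen with earlier results of these data known. Positions came from GENCODE M21, promoters from RefSeq. Protein sequences were not used here. Plots came from Python 3.11.15 (matplotlib 3.10.9).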

Additional observations from a re-analysis of the deposited data

Results flagged for a closer look

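The change of Cox7a1 differed between the models: the log2 fold change in the Myh6 model minus that in the EIIa model was -2.24 (SE 0.36, edgeR adjusted p = 0.0089), and over the alternatives it ran from -2.47 to -1.88, called in 22 of 22. The change of Cox8b differed by -1.93 (SE 0.37, edgeR adjusted p = 0.0152), and ran from -2.15 to -1.57, called in 22 of 22. The models differ in age, Cre line and injection together, which cannot be told apart here.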

How the results depend on the processing

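Of the members, 1 was called lower in EIIa-tg, 2 with DESeq2, and 0 with limma without a filter, in 1 fit of all 12 hearts or with the replicate block. By the study's thresholds, applied here and below to edgeR results, the count was also 0. Leaving out each heart gave 0 to 2. Of all tested genes, 8.3% were called lower in EIIa-tg by edgeR and 10.3% with DESeq2. The share was 0.0% with limma without a filter or with the replicate block, and 0.32% in 1 fit of all 12 hearts. Without 1 heart at a time it ran from 0.0% to 13.8%. In Myh6-tg, 4 were called lower, 5 with DESeq2 or with the replicate block (Cox7a2 added), 3 in all 4 limma fits of FPKM (Cox4i1 lost, at -0.75, limma adjusted p of 0.0503 to 0.107), 7 in 1 fit of all 12 hearts and 2 by the study's thresholds, and 2 to 5 when each heart was left out. Of all tested genes, 9.38% were called lower in Myh6-tg by edgeR, 11.6% with DESeq2 and 11.2% with the replicate block. The limma fits of FPKM called 3.87% to 6.95% lower, and 1 fit of all 12 hearts 16.2%. The share was 2.05% by the study's thresholds, and 2.58% to 13.9% without 1 heart at a time. For the difference between models, 2 were called (against 2.27% of all genes called lower), 1 by the study's thresholds, and 2 to 3 when each heart was left out. Of all tested genes, 1.11%, 1.27% and 1.01% were called lower without EIIa-ctl replicate 1, 2 and 3. By the study's thresholds, no share of all genes is given for this difference or for EIIa-tg. With the replicate block, Cox7a1 in EIIa-tg was at -0.88 (edgeR adjusted p = 0.0689). The same numbers did not correlate in the EIIa model (0.0602, -0.0704 and -0.05). With same-numbered pairs the mean of both models was -1.46 for Cox7a1 to Cox7a2 and -1.18 for Cox8b to Cox8a, each with an adjusted p of 0.156 (exact permutation). With so few pairs a single ratio could not pass this test after adjustment. The causes were not tested. On log2 FPKM the sign reversed in EIIa-tg for Cox4i2 (0.028 with a pseudocount of 1, 0.029 with 0.1), Cox7a2 (0.022) and Cox8a (0.022), and in Myh6-tg for Cox8a (0.365 and 0.369). There Cox6a1 in Myh6-tg was at 0.605 to 0.612 (limma adjusted p of 0.0519 to 0.074). Cox7a1 and Cox8b in Myh6-tg were called lower in 17 of 17 alternatives, and Cox6a2 in 16 of 17. Without 1 heart at a time, values whose sign or call changed ran as follows. In the Myh6 model, Cox6a1 ran from -0.013 to 0.46 and Cox8a from -0.36 to 0.32, and the difference between models for Cox8a from -0.20 to 0.49. In Myh6-ctl against EIIa-ctl, where none was called, Cox4i1 ran from -0.39 to 0.049, Cox4i2 from -0.27 to 0.17, Cox6a1 from -0.31 to 0.14, Cox6a2 from -0.50 to 0.10, Cox7a2 from -0.34 to 0.094, Cox7a2l from -0.093 to 0.0085, Cox8a from -0.43 to 0.11 and Cox8b from -0.44 to 0.14. Over both models, Cox6a2 to Cox6a1 ran from -0.998 to -0.86 (adjusted p of 0.05 to 0.15, exact permutation), Cox7a1 to Cox7a2 from -1.55 to -1.404, Cox8b to Cox8a from -1.27 to -1.03 and Cox7a2l to Cox7a2 from -0.0996 to 0.081. Cox8b to Cox8a in the Myh6 model ran from -2.36 to -1.88.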
